A study of Mus musculus with 3 samples.

Results

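The 8 genes described here encode transcription factors of the trophoblast, the lineage that forms the outer layer of the blastocyst and later the fetal part of the placenta: Cdx2, Elf5, Tfap2c, Hand1, Gata3, Eomes, Tead4 and Ascl2. They were read in R1 cells, mouse embryonic stem (ES) cells of strain 129, by the Affymetrix Mouse Gene 1.0 ST array, whose probes lie along the exons of each transcript. Each factor was found by its annotated symbol and had 1 probe set that named no other gene, so 8 of 19057 measured genes are described. The series holds 3 arrays, labelled as biological repeats of 1 group for which no treatment is named, and no trophoblast sample is among them. The labels name no culture medium, feeder layer or passage. Levels of different genes come from different probes and were not ranked against one another, so each gene is set against the background of its own array and against itself across the repeats.

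In the blastocyst, Hippo signalling is low in outer cells, which leaves the coactivators Yap1 and Wwtr1 in the nucleus. There they join Tead4 and turn on Cdx2 and Gata3. Cdx2, Eomes, Elf5 and Tfap2c then maintain each other in trophoblast stem cells, which depend on FGF signals, while Ascl2 and Hand1 act later, in the spongiotrophoblast and the giant cells of the placenta. ES cells come from the inner cell mass, and the pluripotency factor Pou5f1 represses Cdx2 in them. Several of the 8 factors also have roles outside the trophoblast, such as Eomes in the primitive streak, Tfap2c in germ cells and Hand1 in the heart.

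Background was taken from 1186 olfactory and vomeronasal receptor genes, families that ES cells are not known to use. Above background on an array means a log2 intensity over their 95th percentile there, which lay at 4.72, 4.60 and 4.61 in repeats 1, 2 and 3. Median probe set intensity was 47.8, 46.7 and 46.8. With 3 arrays, precision is limited throughout. All 9 measured ES cell markers were above background on all 3 arrays, with Pou5f1 at 11.77 ± 0.12, Sox2 at 10.78 ± 0.017, Nanog at 11.002 ± 0.20 and Zfp42 at 11.11 ± 0.32 (log2 intensity, mean ± SD, n = 3). Of 17871 genes outside the receptor families, 71.4% were above background on all 3 arrays, as were 3.88% of the receptor genes themselves.

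Tfap2c, Tead4, Eomes, Hand1, Cdx2 and Ascl2 lay above background on all 3 arrays, Gata3 on 2 and Elf5 on none. That is 6 of 8 factors, a share close to the 71.4% of all genes outside the receptor families. The 6 differed in how high a cutoff they passed. With the cutoff raised to the 99th percentile of these genes (5.52, 5.40 and 5.53 in repeats 1, 2 and 3), Tfap2c, Tead4, Eomes and Hand1 passed on all 3 arrays, 4 of 8 factors against 54.8% of all genes outside the receptor families. A second background came from 165 genes of keratin-associated, late cornified envelope, small proline-rich, defensin, taste receptor and trace amine receptor families, whose 95th percentile was 6.12, 6.28 and 6.18. Above it on all 3 arrays were Tfap2c and Tead4, 2 of 8, against 42.9% of genes outside these families. The height of that cutoff followed from the families chosen. The 95th percentile was 6.66, 6.58 and 6.70 for the 44 keratin-associated genes and 4.55, 4.67 and 4.33 for the 34 taste receptors. With the keratin-associated and late cornified envelope genes left out, 102 genes gave cutoffs of 4.90, 4.86 and 4.82, which the same 6 factors passed on all 3 arrays, beside 67.2% of other genes.

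**Figure D1:**
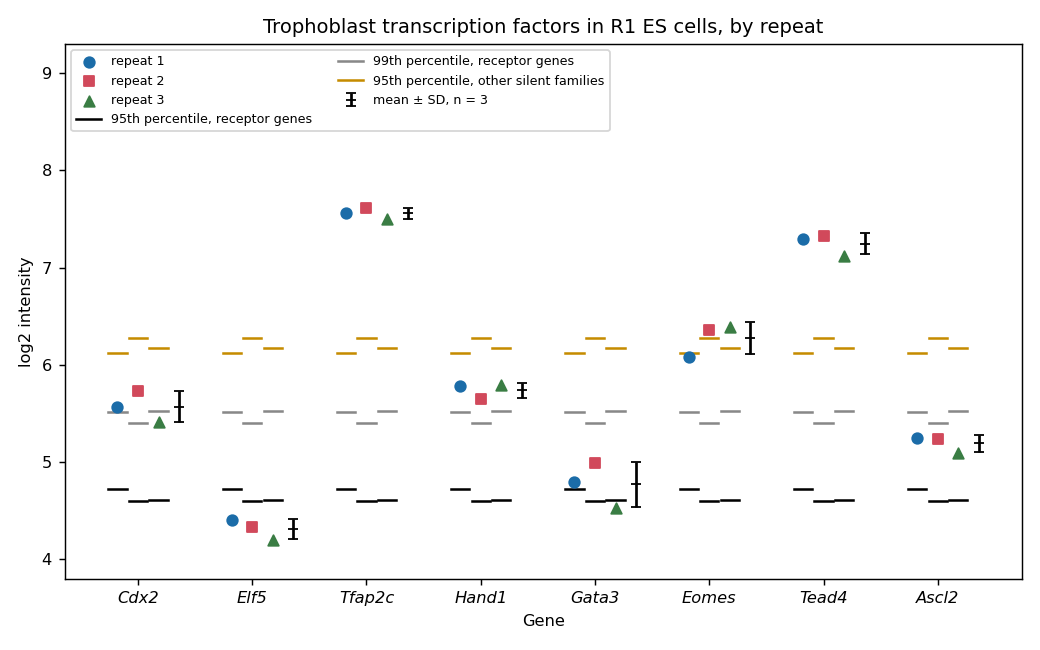
Log2 intensity (y axis) of the 8 factors (x axis) in repeats 1 to 3, with the mean ± SD (n = 3) at the right of each gene and 3 background cutoffs drawn for each array as short bars (black, 95th percentile of receptor genes; grey, 99th percentile; ochre, 95th percentile of other silent families). Tfap2c and Tead4 sit above all 3 cutoffs in each repeat, and Elf5 lies below the lowest of them in each repeat.

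Tead4, the TEA domain partner of Yap1 and Wwtr1, read 7.30, 7.32 and 7.12 in repeats 1, 2 and 3 (7.25 ± 0.11). It stood 2.58, 2.72 and 2.51 log2 units over the background cutoff of each array, a mean of 6.08-fold, and 2, 0 and 1 of the 1186 receptor genes reached its level. Repeats 1 and 2 were close together and repeat 3 was the lowest. Tfap2c, the AP-2 gamma factor, read 7.56, 7.62 and 7.50 (7.56 ± 0.057) and stood 2.84, 3.01 and 2.89 units over the cutoff, a mean of 7.55-fold. At most 1 receptor gene reached Tfap2c on any array, and its SD was the smallest of the 8.

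Cdx2 and Gata3 are targets of Tead4 in the outer cells of the embryo. Cdx2, the caudal-type homeodomain factor that specifies the trophectoderm, read 5.57, 5.73 and 5.41 (5.57 ± 0.16). Its margin over the cutoff was 0.85, 1.13 and 0.80 log2 units, and 11, 7 and 16 receptor genes were at or above it. Cdx2 was highest in repeat 2 and lowest in repeat 3, where it fell below the 99th percentile of the receptor genes. Gata3, a zinc finger factor that acts beside Cdx2, read 4.79, 4.99 and 4.53 (4.77 ± 0.23). It was 0.07 and 0.39 units over the cutoff in repeats 1 and 2 and -0.08 from it in repeat 3, so the arrays fell on both sides. Between 28 and 73 receptor genes reached the level of Gata3, and signal at this level was not shown to be expression.

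Among the factors of trophoblast stem cells, Eomes, a T-box factor, read 6.08, 6.36 and 6.39 (6.28 ± 0.17), or 1.36, 1.75 and 1.78 units over the cutoff. Repeat 1 was the lowest of the 3 for Eomes, and 5, 3 and 4 receptor genes reached it. Eomes passed the cutoff of the other silent families in repeats 2 and 3 but was -0.04 from it in repeat 1. Elf5, an ETS factor, read 4.40, 4.34 and 4.20 (4.31 ± 0.10), which is -0.32, -0.27 and -0.41 from the cutoff. All 3 arrays thus lay below background for Elf5, at a level that 99, 107 and 126 receptor genes (8.35%, 9.02% and 10.6%) reached as well. A gene below the cutoff was not shown to be silent.

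The factors of later trophoblast both have a basic helix-loop-helix domain. Hand1, needed for giant cells, read 5.78, 5.65 and 5.79 (5.74 ± 0.078), between 1.05 and 1.18 units over the cutoff, and 6 to 8 receptor genes reached it. Ascl2, an imprinted factor of the spongiotrophoblast, read 5.24, 5.24 and 5.09 (5.19 ± 0.088), between 0.48 and 0.64 units over the cutoff, with 18 to 27 receptor genes at or above it. Hand1 was lowest in repeat 2 and Ascl2 in repeat 3, each by under 0.2 log2 units. Hand1 passed the 99th percentile of the receptor genes on all 3 arrays and Ascl2 on none. Neither passed the cutoff of the other silent families on any array.

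**Figure D2:**
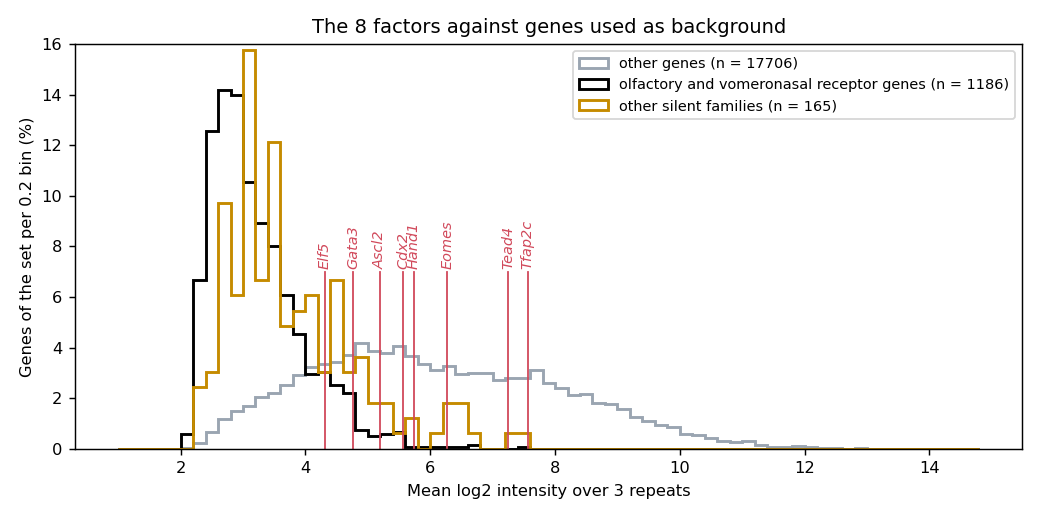
Share of genes (y axis, percent of each set per bin) by mean log2 intensity over the 3 repeats (x axis) for 1186 receptor genes, 165 genes of other silent families and 17706 remaining genes, with the means of the 8 factors as vertical lines. Elf5 and Gata3 lie in the upper tail of the receptor genes, while Tead4 and Tfap2c lie beyond nearly all genes of both background sets.

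In ES cells the Elf5 promoter is known to be methylated at CpG dinucleotides, a lock that separates them from the trophoblast; methylation was not measured here. RefSeq (GRCm38.p6) gave promoter windows for 5 of the 8 factors (Elf5 with 2 start sites). There was none for Tfap2c, Hand1 and Tead4. The 250 bases before the start site are printed for the 2 factors not above background on all arrays and, for contrast, for Cdx2, with each CpG in capitals.
Elf5, first start, chr2:103411848-103412097, strand +: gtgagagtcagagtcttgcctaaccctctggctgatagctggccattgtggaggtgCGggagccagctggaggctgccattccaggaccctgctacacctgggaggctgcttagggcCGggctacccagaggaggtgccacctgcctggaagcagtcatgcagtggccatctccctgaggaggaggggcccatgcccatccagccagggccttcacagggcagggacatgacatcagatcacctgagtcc
Elf5, second start, chr2:103423818-103424067, strand +: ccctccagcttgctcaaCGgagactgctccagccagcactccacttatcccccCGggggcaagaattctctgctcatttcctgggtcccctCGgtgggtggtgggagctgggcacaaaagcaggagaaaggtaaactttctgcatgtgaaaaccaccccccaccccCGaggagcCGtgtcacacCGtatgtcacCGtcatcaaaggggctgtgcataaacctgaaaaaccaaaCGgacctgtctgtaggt
Gata3, chr2:9878601-9878850, strand -: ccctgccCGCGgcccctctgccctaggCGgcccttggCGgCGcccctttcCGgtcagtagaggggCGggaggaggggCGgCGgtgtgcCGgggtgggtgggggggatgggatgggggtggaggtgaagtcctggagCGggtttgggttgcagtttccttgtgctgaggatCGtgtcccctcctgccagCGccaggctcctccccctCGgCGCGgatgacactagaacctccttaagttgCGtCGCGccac
Cdx2, chr5:147307250-147307499, strand -: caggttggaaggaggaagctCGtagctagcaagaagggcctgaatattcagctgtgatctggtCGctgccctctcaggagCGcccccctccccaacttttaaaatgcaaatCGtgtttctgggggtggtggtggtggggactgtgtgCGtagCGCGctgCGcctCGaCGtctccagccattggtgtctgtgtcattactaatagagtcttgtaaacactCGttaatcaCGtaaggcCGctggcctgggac
Over the full window of 300 bases, from 250 before to 50 after the start, the first Elf5 window held 3 CpGs and the second 10, while Gata3 held 22 and Cdx2 18. Eomes held 10 and Ascl2 23. The median of 32851 such windows was 7, and 23.3% of windows held fewer CpGs than the first Elf5 window. The TEAD motif GGAATG, searched on both strands, occurred once in the first Elf5 window and in none of the other 5, against 14.7% of all windows. The AP-2 motif GCCNNNGGC, which reads the same on both strands and does not overlap the other motif, occurred once in Cdx2 and 3 times in Gata3, against 16.6% of all windows with a match. A comparison of CpG number with detection over all genes was treated as void and is not given, because no more than 77.7% of genes outside the receptor families had a window.

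Paralogs share the DNA-binding domain of a factor. Of 22 measured paralogs 18 were above background on all 3 arrays (81.8%), a share near the 71.4% of all genes outside the receptor families. The count was 11 at the 99th percentile (all genes, 54.8%) and 4 with the other silent families (all genes, 42.9%). In the ETS family of Elf5, Elf1 (6.47 ± 0.24), Elf2 (7.25 ± 0.11) and Elf3 (6.12 ± 0.18) were above background on all 3 arrays. Ehf (3.85 ± 0.15) was below background on all 3, like Elf5. In the Gata family, Gata2 (5.88 ± 0.17), Gata4 (6.06 ± 0.11), Gata5 (5.05 ± 0.22) and Gata6 (5.94 ± 0.17) all passed on 3 arrays, Gata3 on 2. None of the 5 Gata genes exceeded the cutoff of the other silent families on any array.

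The AP-2 family was split. Tfap2e (6.02 ± 0.094) and Tfap2a (4.77 ± 0.12) were above the main cutoff with Tfap2c, Tfap2a by less than 0.2 log2 units on each array, while Tfap2b (3.86 ± 0.050) and Tfap2d (3.86 ± 0.061) were below it on all 3. Above the cutoff of the other silent families on all 3 arrays stood Tfap2c alone among the 5. All 4 Tead genes were above the main cutoff, with Tead1 at 9.46 ± 0.18, Tead2 at 8.59 ± 0.12 and Tead3 at 5.85 ± 0.093, and Tead1, Tead2 and Tead4 also passed the higher one on all 3 arrays. In the Ascl family, Ascl4 (5.59 ± 0.19) and Ascl5 (5.38 ± 0.12) were above the main cutoff beside Ascl2, and Ascl3 (3.90 ± 0.087) was not. None of these Ascl genes passed the cutoff of the other silent families on any array. Cdx1, the paralog of Cdx2, read 6.17 ± 0.18 and Hand2 read 5.40 ± 0.017. The T-box genes Tbr1 and Tbx21 read 4.78 ± 0.12 and 5.28 ± 0.30. All 4 were above background on all 3 arrays, Tbr1 by only 0.08, 0.29 and 0.04 log2 units in repeats 1, 2 and 3. Cdx1 passed the 99th percentile of the receptor genes on all 3 arrays, Tbx21 on 1, and Hand2 and Tbr1 on none.

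**Figure D3:**
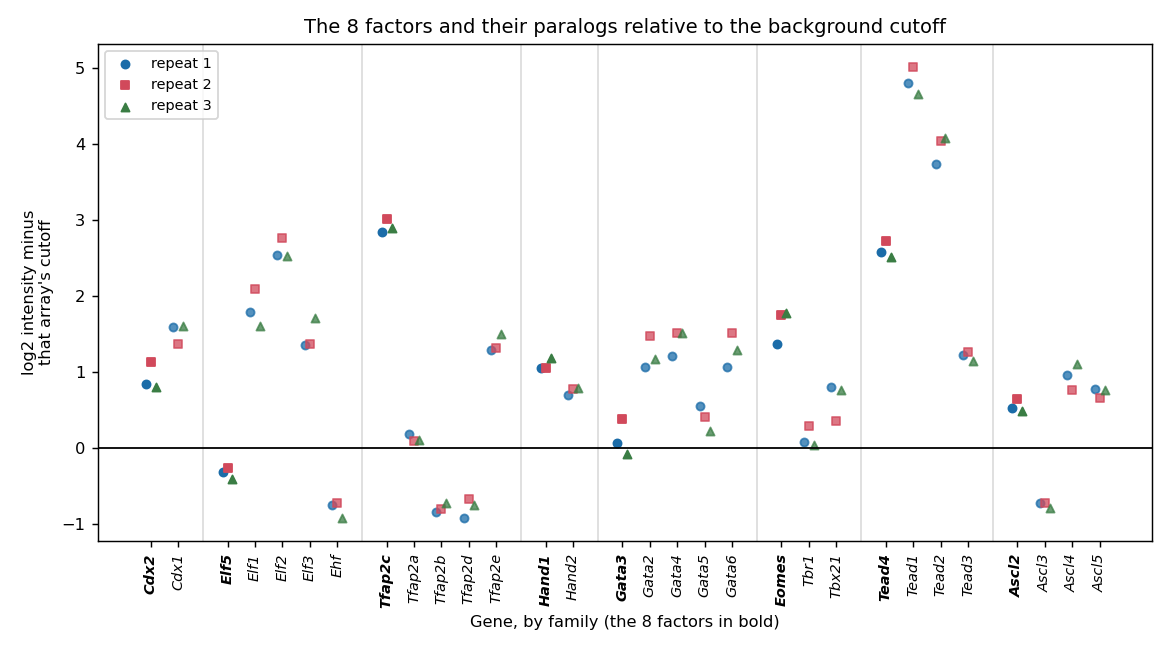
Log2 intensity minus the background cutoff of the same array (y axis; 0 is the cutoff) for each factor (bold) and its measured paralogs (x axis, grouped by family) in repeats 1 to 3. Elf5, Ehf, Tfap2b, Tfap2d and Ascl3 lie below 0 in each repeat, and Gata3 lies below 0 in repeat 3.

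Genes that act upstream of Cdx2 gave signal. All 14 measured genes of the Hippo and Notch inputs were above background on all 3 arrays, and 12 of them also passed the cutoff of the other silent families, against 71.4% and 42.9% of all genes at these cutoffs. The coactivators Yap1 and Wwtr1, partners of Tead4, read 8.57 ± 0.086 and 7.35 ± 0.21, and the angiomotin-like scaffolds Amotl1 and Amotl2 read 6.40 ± 0.050 and 8.09 ± 0.26. A further list held factors described as keeping trophoblast genes silent in ES cells, a role that was not measured here. All 14 measured genes of it passed both cutoffs on all 3 arrays. Among them were Pou5f1, Nanog, the zinc finger factor Sall4 (9.91 ± 0.12) and the DNA methyltransferase Dnmt3b (8.88 ± 0.40).

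Other trophoblast genes were read in 2 lists, whose difference was not tested. Of 16 measured genes of trophoblast stem cells, 16 were above background on all 3 arrays and 11 passed the cutoff of the other silent families, where all genes had shares of 71.4% and 42.9%. They include the FGF receptor Fgfr2 (6.13 ± 0.30), Ets2 (6.56 ± 0.20), Sox21 (6.33 ± 0.15) and placental cadherin Cdh3 (7.38 ± 0.40), and several, such as Zfp42 and Lin28a, are also ES cell genes. Of 22 measured genes of differentiated trophoblast, 11 were above background on all 3 arrays (50%), 11 were below on all 3, and 3 passed the cutoff of the other silent families, beside the same shares of all genes. The first 3 measured in list order were below on all 3 arrays. These were the spongiotrophoblast gene Tpbpa (2.91 ± 0.070) and the prolactin family members Prl4a1 (3.29 ± 0.12) and Prl8a9 (2.60 ± 0.091). Among the 11 above, levels reached 11.60 ± 0.073 for Slc2a1 and 11.17 ± 0.017 for Peg10. Both were named after their values were seen, and their signal was not shown to come from trophoblast-like cells. The metalloproteinase Mmp9 (6.23 ± 0.50) was above and varied most between repeats.

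Markers of other lineages in which some of the 8 factors are active were read as well, to be set beside 71.4% of all genes at the main cutoff and 42.9% at that of the other silent families. Of 11 measured primitive streak and mesoderm markers 9 were above background, with Mixl1 at 5.41 ± 0.020 and Gsc at 5.98 ± 0.14. Evx1 (4.51 ± 0.064) was below on all 3 arrays and Mesp1 (4.46 ± 0.38) on 2, and 1 of the 11 passed the cutoff of the other silent families. Of 12 endoderm markers 8 were above background, including Gata6, Gata4, Sox7 (5.07 ± 0.082) and Cubn (5.59 ± 0.48). Sox17 (4.60 ± 0.076), Dab2 (4.50 ± 0.059), Ttr (3.50 ± 0.17) and Afp (3.79 ± 0.071) were below on all 3 arrays, and 0 of the 12 passed the higher cutoff on all 3 arrays. All 9 primordial germ cell genes were above background, among them Prdm1 (5.17 ± 0.20), Prdm14 (6.61 ± 0.14), Dppa3 (6.05 ± 0.21) and Dazl (6.79 ± 0.47), and 5 passed the higher cutoff. Prdm1 passed the 99th percentile of the receptor genes on no array. The signal of these genes was not shown to come from germ cells. In bulk RNA, low signal from all cells and higher signal from a few cells cannot be told apart.

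**Figure D4:**
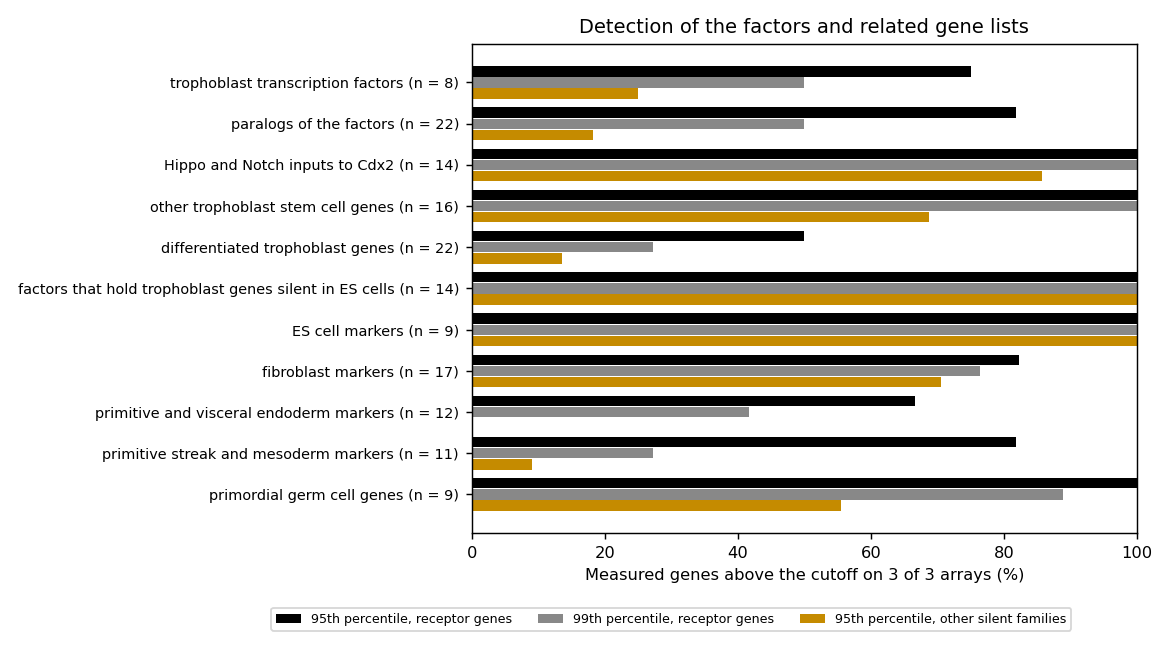
Percent of the measured genes of each list (y axis, n in brackets) above 3 background cutoffs on 3 of 3 arrays (x axis). The 8 factors fall from 6 to 4 to 2 genes with rising cutoff, while the share of all genes falls from 71.4% to 54.8% to 42.9%.

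No factor passed the test for variation between repeats. Gata3 spread most, over 0.46 log2 units (1.37-fold), followed by Cdx2 (0.32, or 1.25-fold) and Eomes (0.31, or 1.24-fold). Tfap2c spread least, over 0.11 units (1.08-fold). Over all genes above background on all 3 arrays the median SD was 0.101 and the 90th percentile 0.209. In the limma variance test, which sets the variance of each gene over the 3 repeats against a prior fitted over all 13591 genes above background on at least 1 array, 0.162% of genes were called after Benjamini-Hochberg adjustment. Of the 7 factors tested 0 were called, and 0 had an unadjusted p under 0.05. Gata3 came nearest (adjusted p = 0.974, unadjusted p = 0.121 in limma), and the other 6 had an adjusted p of 0.993 or 0.998. Elf5, below background on all arrays, was not tested there. These p-values measure the spread between 3 arrays of 1 line, and a p above the threshold does not show that the repeats were equal.

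Repeat 3 held the lowest value of 6 of the 8 factors (Cdx2, Elf5, Tfap2c, Gata3, Tead4 and Ascl2), a count looked at after the values were seen. Among the 6 factors above background on all 3 arrays it was lowest for 4, while over all genes so detected repeat 3 was lowest for 31.9%. The deficits against the mean of the other repeats were small, at -0.36 for Gata3, -0.24 for Cdx2, -0.19 for Tead4, -0.17 for Elf5, -0.15 for Ascl2 and -0.08 for Tfap2c. Hand1 and Eomes went the other way, with repeat 3 at 0.08 and 0.17 above the others. These 6 were also lowest in repeat 3 after quantile normalization and after median centring.

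Repeat 2 held the highest value of Cdx2, Gata3, Tfap2c and Tead4, at 0.24, 0.33, 0.09 and 0.12 log2 units above the mean of the others. Among the 6 factors above background on all 3 arrays it was highest for 3, while over all genes so detected repeat 2 was highest for 36.9%. After quantile normalization Tead4 was highest in repeat 1 instead, and Elf5 and Ascl2 were highest in repeat 2, as Ascl2 also was after median centring. In other lists, repeat 2 was highest for 10 of 16 trophoblast stem cell genes and 6 of 9 ES cell markers above background. The counts so taken were 7 of 14 for factors listed as silencing trophoblast genes and 5 of 9 for germ cell genes. They were lower for paralogs (6 of 18), Hippo and Notch inputs (5 of 14) and endoderm markers (2 of 8). Differentiated trophoblast genes and streak and mesoderm markers had 1 of 11 and 1 of 9. Most fibroblast markers were highest in repeat 2 too. Of 17 measured, 14 were above background on all 3 arrays, of which 11 were highest in repeat 2. Their median difference there was 0.37 log2 units, against 0.006 over all genes above background. Their summed intensity was 4162, 5414 and 4230 in repeats 1, 2 and 3, with Col1a1 at 8.71 ± 0.36, Col1a2 at 8.18 ± 0.29, Col3a1 at 7.20 ± 0.25 and Acta2 at 8.25 ± 0.79. Lum (4.37 ± 0.20) and Fap (3.27 ± 0.20) were below background on all 3 arrays, and S100a4 (4.85 ± 0.26) was below it in repeat 2. Acta2 and the collagen cross-linking enzyme Lox were called in the limma variance test (adjusted p = 0.0082 and 0.0193), at 1.29 and 1.35 above the other repeats. Both calls were lost without repeat 1 (adjusted p = 0.302 and 0.296 in limma), without repeat 2 (0.189 and 0.997) and without the trend in the prior (0.194 for both), and that of Lox also without the robust prior (0.0511) and with the filter set by the other silent families (0.0558). Whether the signal of these markers bears on the values of the 4 factors was not tested.

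**Figure D5:**
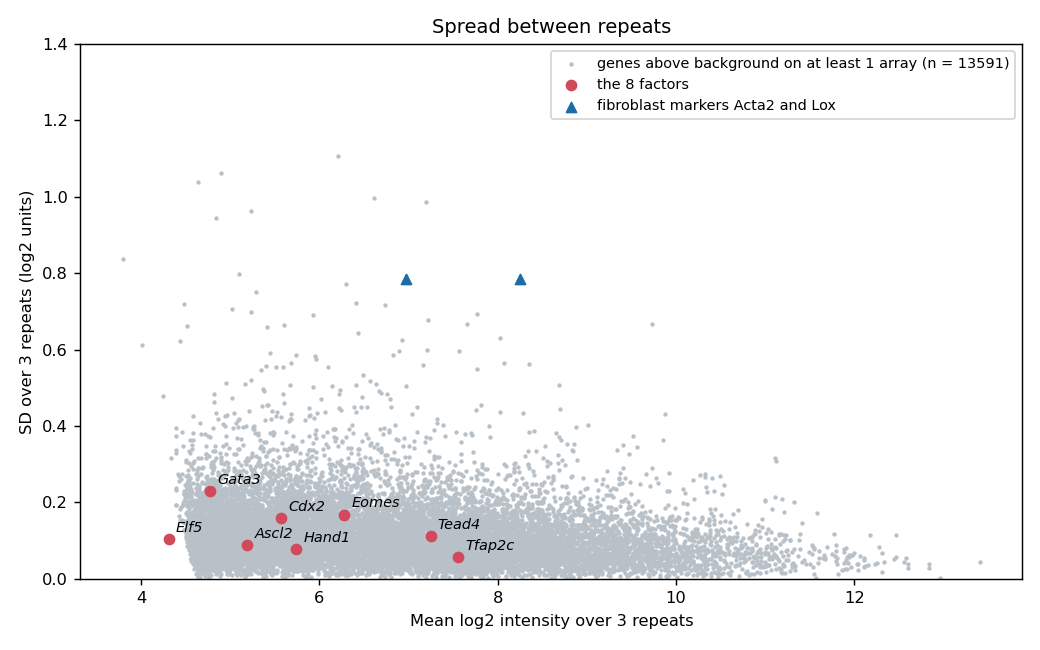
SD over the 3 repeats (y axis, log2 units) against mean log2 intensity (x axis) for 13591 genes detected on 1 or more arrays, with the 8 factors in red and the fibroblast markers Acta2 and Lox as blue triangles. The factors lie within the cloud, between 0.057 for Tfap2c and 0.23 for Gata3. Acta2 and Lox lie higher, at 0.79 and 0.78, and at least 1 other gene lies higher still (1810037I17Rik, 1.04).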

How the data were processed

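RNA of 3 repeats of R1 was isolated by Trizol and carries a biotin label, per the labels' protocols. The authors deposited linear probe set intensities. The submitters' processing notes name GCOS 1.4; how background, normalization and probe set summary were handled was not given, so the size of a difference may depend on unknown steps. Intensities were taken to log2 without further normalization, and a lower limit of 1 changed no value. Of 26730 probe sets, 20764 had 1 gene symbol in the platform annotation, which can be old; 1419 with several and 4547 with none listed were left out. Several probe sets of a gene (930 genes) were averaged, which touched none of the 8 factors. Receptor genes carry symbols beginning Olfr or Vmn.

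The variance test used limma 3.58.1 in R 4.3.3, with an intercept-only fit, a trended, robust prior and Benjamini-Hochberg adjustment at 0.05. The reference was an F distribution on 2 and 9.87 degrees of freedom, the latter common to all genes, because values lowered for outlying genes recovered no change when tested on simulated data. With the common value, the test on 13591 such genes recovered 82 of 100 changes of 1 log2 unit on 1 array and 100 of 100 of 1.5, with 7 false calls among 189. The simulated noise was normal and had no trend with intensity, unlike the fitted prior, so these figures may not hold for the arrays.

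The factors, lists, tests and alternatives were chosen with earlier results of these data known. Named in each list are the first 3 measured genes, the one with the largest SD and, where 5 or fewer, the genes on the rarer side of the cutoff. All measured paralogs are named, in part beyond that rule, as are Lin28a, Lox, Slc2a1 and Peg10, chosen after their values were seen.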

Additional observations from a re-analysis of the deposited data

How the results depend on the processing

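The count of 6 factors above background was 4 at the 99th percentile of the receptor genes, 2 with other silent families as background, 7 when 2 of 3 arrays sufficed and 6 after quantile normalization, after median centring and with the highest probe set of a gene. Leaving out 1 repeat gave 6 to 7, the latter without repeat 3, when Gata3 passed on both remaining arrays. Leaving the keratin-associated and late cornified envelope families out of the other silent families, an alternative chosen after seeing the data, gave 6. Over the other lists, 116 of 140 distinct genes were above background, against 68 with the other silent families; under the remaining alternatives the count lay between 93 and 117.

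The limma variance test called 22 of 13591 genes. It called 14 among genes above background on all 3 arrays, 13 after quantile normalization, 39 after median centring, 10 without the robust prior, 1 without the trend and 5 with the filter set by the other silent families. Leaving out each repeat in turn gave 0 to 34 calls: 0 without repeat 1 (704 genes at an unadjusted p under 0.05), 34 without repeat 2 and 11 without repeat 3. In each of these settings 0 of the factors tested were called and 0 had an unadjusted p under 0.05; the lowest was 0.0554, for Gata3 without repeat 1. Why the counts moved was not tested.

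No paired analysis was possible because the 3 arrays form 1 group. Low signal limits what is said of Elf5, Gata3, Ascl2, Cdx2 and Hand1, which lay below the cutoff of the other silent families on all arrays. Eomes lay below that cutoff in repeat 1 only.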
